A study of Mus musculus with 68 samples.

Results

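The genes of the voltage-gated sodium and calcium channels were followed across motor neurons in which 1 or 2 transcription regulators, or a Notch1 intracellular domain or NERT construct, had been switched on. The genes were taken by name: every transcript cluster annotated to exactly 1 symbol beginning with Cacna, Cacnb or Cacng, or with Scn and a digit, and, for a gene with several clusters, the brightest by its mean over all arrays. This gave 35 genes of 19938 measured, 11 of sodium channels and 24 of calcium channels. The rule uses gene names, and signal only to choose among clusters.

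Voltage-gated channels open when the membrane depolarises. Sodium channels carry the upstroke of the action potential through a large alpha subunit, and small beta subunits alter its gating and tie it to adhesion molecules and the cytoskeleton. Calcium channels pass calcium through an alpha1 subunit, which sets the channel type (L, P/Q, N, R or T), while alpha2delta and cytoplasmic beta subunits bring the channel to the surface. Of the gamma subunits, Cacng1 belongs to the skeletal muscle channel and several others, the TARPs, act mainly on AMPA-type glutamate receptors. In motor neurons these proteins set firing and the release of acetylcholine at the nerve ending.

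The cells were motor neurons made from mouse embryonic stem cells of a line labelled C57/BL6. Embryoid bodies were patterned from day 2 with retinoic acid and an agonist of Smoothened. On day 5 single cells were prepared from them and purified with magnetic beads against a surface reporter, CD2 or CD14. The sorted cells were cultured for 30 h on matrigel with doxycycline, which switched on the transgene. Lines marked (10) were induced for the last 10 h only, and lines marked (30) carried the same construct for the whole 30 h. The labels give this one protocol for all lines, the YFP controls included, which differed in reporter and, for the (10) lines, in the time of induction. The design compared each line with a line inducing YFP, as a gain-of-function screen for determinants of phrenic motor neurons.

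With the CD2 reporter there were 4 YFP arrays, 4 Pou3f1 arrays, 3 arrays of the H4 parental line and 2 arrays each of 17 other lines. Those lines induced Arid5b, Btbd3, Chd5, DNLhx3, Hey1, Hoxa5, Hoxc6, Klf5, Klf6, Lhx3, Sfmbt2, Tox, Vwc2, Zbtb7c or Zic1, or the Notch1 intracellular domain (Notch1 ICD) for 10 h or 30 h. With the CD14 reporter there were 4 YFP arrays and 2 arrays each of 8 lines: Pou3f1, Pou3f1-FLAG, Pou3f1;DNLhx3, Pou3f1;Hoxa5, Pou3f1;Hoxc6, Pou3f1;Lhx3, NERT (10) and NERT (30). The joint lines are written below as Pou3f1 with the other gene. The labels do not spell out DNLhx3, H4, E3 or NERT, and 3 further arrays of the E3 parental line were not compared. Values are log2 signals of the authors, and a difference is the line minus YFP of the same reporter after adjustment for the labelled batch. "Called" means an adjusted p below 0.05 by limma's moderated test, with Benjamini-Hochberg adjustment over all 19938 genes. Whether arrays of a group stem from separate cultures is not labelled. The p-values therefore reflect the variation among these particular samples, possibly of technical origin only, and the small number of arrays limits their precision. All CD2 comparisons share the 4 CD2 YFP arrays, and all CD14 comparisons share the 4 CD14 YFP arrays.

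The 68 arrays correlated at r = 0.987 to 0.999 between samples of 1 group in 1 batch and at 0.974 to 0.994 across batches. Of 8 motor neuron markers, Isl1 had a signal between 11.45 and 13.47 and Prph, the intermediate filament peripherin, between 11.37 and 13.18. Chat lay between 8.61 and 10.55, Mnx1 between 8.45 and 10.34, and Lhx3, induced in some lines, between 7.44 and 11.65. The progenitor genes Vim and Fabp7 lay at 13.78 to 14.15 and 13.27 to 14.40. The pluripotency gene Nanog lay between 6.00 and 7.11. CD2 YFP arrays existed in batches 1, 2 and 3 and CD14 YFP arrays in batches 6 and 7. Batches 4 and 5 and the CD2 arrays of batch 6 had no YFP of their own reporter, so their differences pass through lines shared with other batches. Within batch 4, 6 arrays were handled as a set apart from the other 3, a split that was not tested here. These 6 were 1 each of Hoxa5, Chd5, H4 parental and Arid5b, and 2 of Pou3f1. Their Scn2b signals overlapped those of the other 3 (8.03 to 8.21 against 8.06 to 8.20). Their Scn3b signals did not (11.74 to 12.29 against 12.31 to 12.44). Results that rest on the 6 arrays are given with and without them.

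Across the 27 comparisons with YFP the channel genes gave 945 pairs of gene and comparison, of which 44 were called, 30 higher and 14 lower than YFP. This was 4.66% of the pairs, beside a background of 1.99% over all genes (1.12% higher and 0.872% lower). Of the 35 channel genes 20 (57.1%) were called in at least 1 comparison, beside 5129 (25.7%) of all genes. The calls fell in 14 comparisons, and 13 comparisons had none. In 11 of those 13, all with CD2 lines, 0 to 72 genes of 19938 were called, 0.0739% of all pairs. In 33 of the 44 called pairs the arrays of the line did not overlap those of YFP, and over all genes 81.5% of called pairs and 19.8% of all pairs did not overlap. The alpha2delta subunits were called in 12 of 108 pairs (11.1%), the sodium beta subunits in 6 of 81 (7.41%), the sodium alpha subunits in 12 of 216 (5.56%) and the gamma subunits in 8 of 189 (4.23%). The pore-forming calcium alpha1 subunits were called in 6 of 270 (2.22%), and the calcium beta subunits in 0 of 81.

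**Figure D1:**
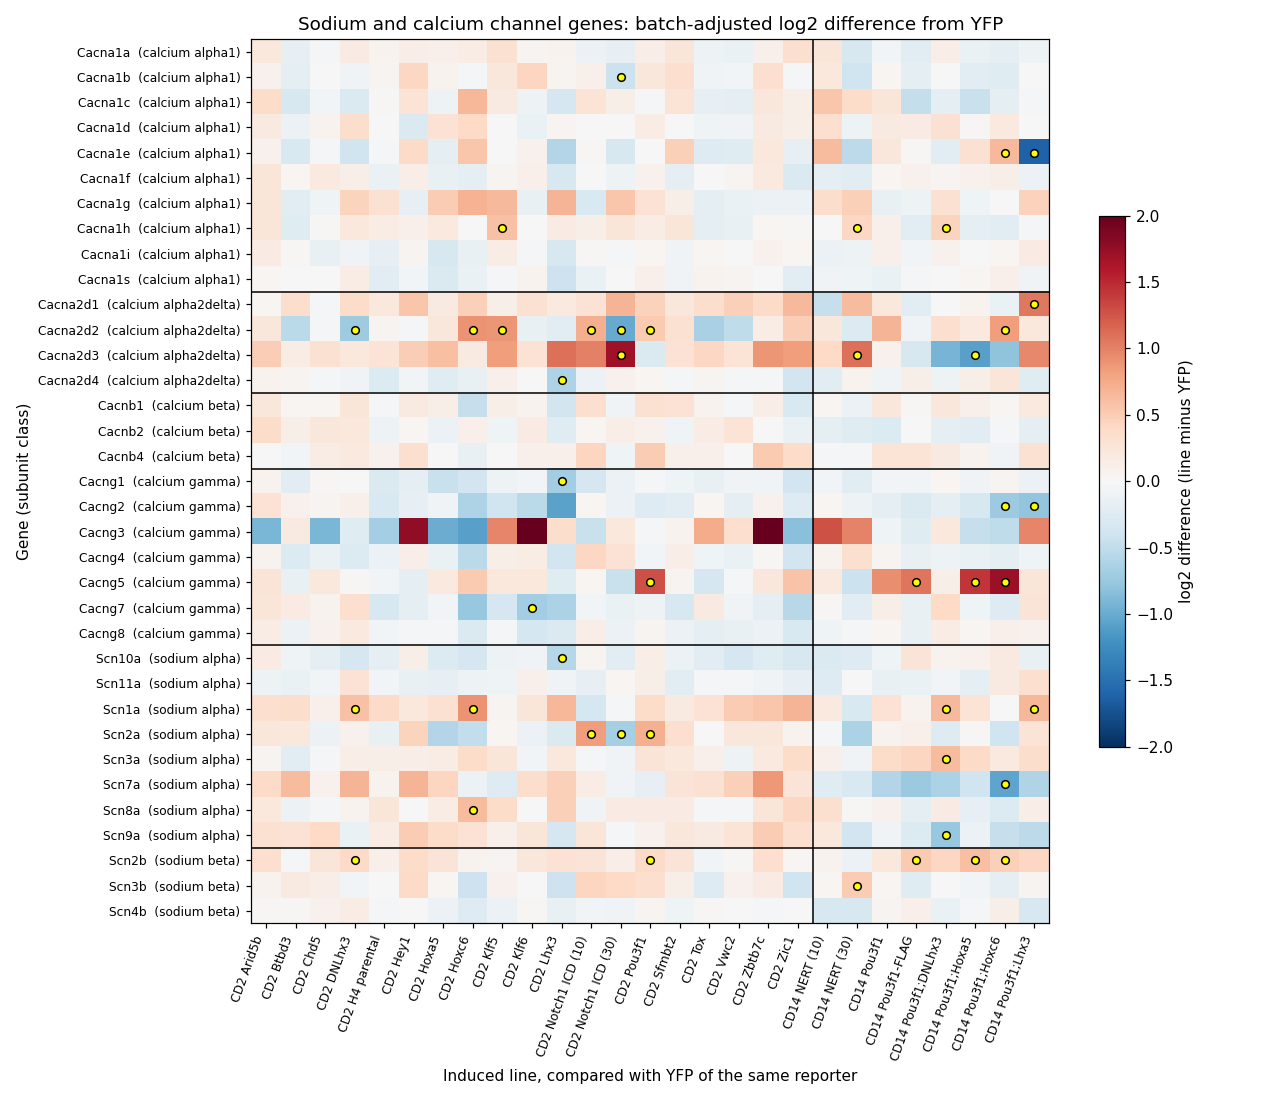
Batch-adjusted log2 difference from YFP for the 35 channel genes (rows, by subunit) in 27 comparisons (columns, CD2 and CD14 lines), with colours capped at 2 in either direction and yellow dots for called pairs. The 44 dots gather in 14 columns, Cacna2d2 has the most with 7, and the calcium beta rows have 0.

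Most calls rested on few arrays. Each call was repeated with every array of its line and of YFP left out in turn. Without at least 1 such array 37 of the 44 calls were lost, and 7 were kept throughout. These 7 were Cacng5 in the CD2 Pou3f1 line and in Pou3f1 with Hoxa5 and with Hoxc6, Cacna2d2 in Pou3f1 with Hoxc6 and in Notch1 ICD (30), Cacna2d3 in Notch1 ICD (30), and Cacna1e in Pou3f1 with Lhx3. Without batch terms 14 of the 44 were still called. Fitting the arrays of each reporter alone kept 27, all 22 calls of the CD14 lines and 5 of the 22 of the CD2 lines. In that fit the CD14 lines had 68 calls among the channel genes, where 13.9% of all genes were called (3.84% in the joint fit), and the CD2 lines 5, where 0.476% were (1.21% in the joint fit).

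**Figure D2:**
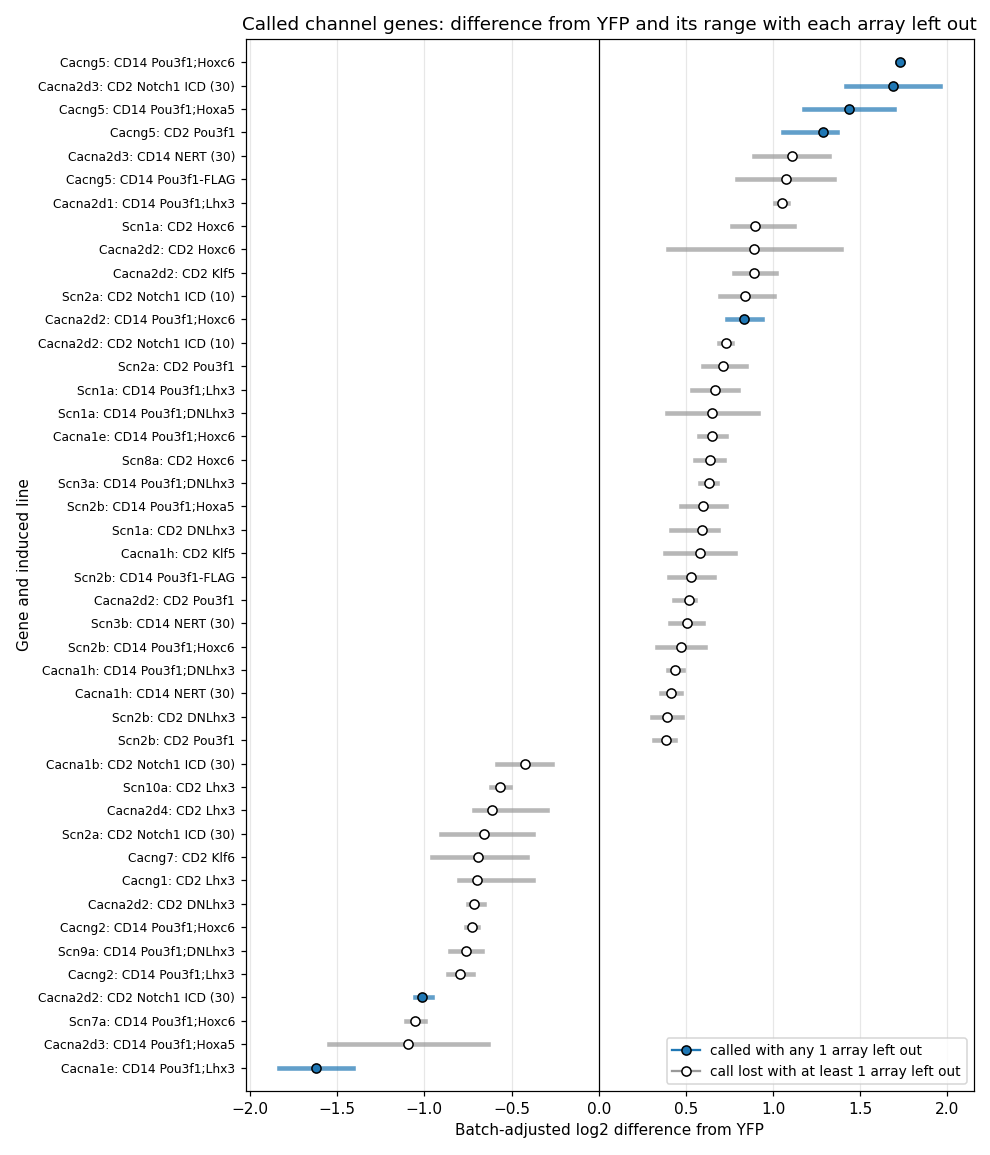
For each of the 44 called pairs, the log2 difference from YFP (point) and the range of that difference when each array of the line or of YFP is left out in turn (line). Blue marks the 7 pairs that stayed called with any 1 array left out, among them Cacng5 in 3 lines.

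Cacng5, a TARP-family gamma subunit, rose in 4 lines that induced Pou3f1, a POU-domain transcription factor, and was called in no line without it. Its mean signal also lay above the highest CD2 YFP array in CD2 Hoxc6 (9.30) and CD2 Zic1 (9.29). Those lines share no batch with CD2 YFP, and Cacng5 was called in neither. In the CD2 YFP arrays the Cacng5 signal was 8.86 in batch 1, 8.34 in batch 2, and 9.02 and 8.98 in batch 3. In the CD2 Pou3f1 arrays it was 10.19 in batch 1, 10.35 in batch 2, and 9.57 and 9.67 in batch 4. Every Pou3f1 array lay above every YFP array, and those of batch 4 were the lower pair. The difference was 1.28 ± 0.19 (SE; 2.44-fold; limma adjusted p = 2.4e-05). Without the 6 batch 4 arrays it was 1.57 (adjusted p = 1.99e-06). In this comparison 2.09% of all genes and 4 of the 35 channel genes were called, all 4 higher (Cacna2d2, Cacng5, Scn2a and Scn2b) where 1.3% of all genes were, with a median difference of 0.11 over the channel genes beside 0.01 over all genes.

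The upstream windows of Cacng5 are shown because its calls in 3 Pou3f1 lines were kept with any 1 array left out, and that of Scn2b because it was called in the same 4 lines. They run from 250 bases before to 50 bases after each annotated start (RefSeq, GRCm38.p6, 5′ to 3′ on the gene's strand). Capitals mark GGACAG or its reverse complement, a short stretch found within the element bound by REST, the repressor of many neuronal channel genes. The starts of Cacng5 lie on the minus strand of chromosome 11 and that of Scn2b on the plus strand of chromosome 9.
Cacng5 chr11:107915006-107915305: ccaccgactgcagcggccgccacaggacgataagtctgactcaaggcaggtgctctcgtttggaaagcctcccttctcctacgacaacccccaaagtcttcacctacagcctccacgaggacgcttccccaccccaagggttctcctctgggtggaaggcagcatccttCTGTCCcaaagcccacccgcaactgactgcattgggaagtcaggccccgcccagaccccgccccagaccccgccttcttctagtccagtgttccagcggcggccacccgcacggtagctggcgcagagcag
Cacng5 chr11:107911313-107911612: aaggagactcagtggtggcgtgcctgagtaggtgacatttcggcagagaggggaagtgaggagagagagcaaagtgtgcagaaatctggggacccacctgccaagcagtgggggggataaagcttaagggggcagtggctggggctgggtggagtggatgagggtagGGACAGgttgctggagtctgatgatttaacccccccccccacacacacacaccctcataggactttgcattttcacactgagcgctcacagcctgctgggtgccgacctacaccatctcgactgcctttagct
Scn2b chr9:45117626-45117925: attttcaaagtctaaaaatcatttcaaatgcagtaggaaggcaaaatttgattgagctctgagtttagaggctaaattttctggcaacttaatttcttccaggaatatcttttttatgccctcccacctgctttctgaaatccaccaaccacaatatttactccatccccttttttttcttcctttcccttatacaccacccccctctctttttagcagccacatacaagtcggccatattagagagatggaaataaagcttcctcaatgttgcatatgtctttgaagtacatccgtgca

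Of the 35 channel genes, 27 had 37 such windows in the table. Missing from it were Cacna1a, Cacna1g, Cacna1h, Cacna2d4, Cacng1, Cacng4, Scn3a and Scn3b. The octamer ATGCAAAT, a sequence bound by POU factors, was in none of the 37 windows on either strand, and in 1.74% of all 32851 windows. GGACAG was in 5 windows of 4 genes (Cacnb1, Cacng5, Cacng8 and Scn8a) and in 22.2% of all windows. TTCAGCACC, another stretch of the REST element, was in none of the 37 and in 0.371% of all. No window of a channel gene held more than 1 of the 3 motifs, so none overlapped.

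In the CD14 lines the Cacng5 signal was 8.73 in both YFP arrays of batch 6 and 8.66 and 8.41 in those of batch 7. In batch 6 it was 9.69 and 9.63 with Pou3f1, 9.52 and 10.08 with Pou3f1-FLAG, 9.90 and 10.42 with Pou3f1 and Hoxa5, and 10.47 and 10.44 with Pou3f1 and Hoxc6. All of these 8 arrays lay above all 4 YFP arrays. The joint lines with Lhx3 (8.93 and 8.63, batch 7) and DNLhx3 (8.89 and 8.81, batch 6) stayed close to the YFP arrays and in part among them.

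Cacng5 was called in Pou3f1 with Hoxc6, at 1.73 ± 0.23 (SE; 3.31-fold; limma adjusted p = 1.57e-06), and in Pou3f1 with Hoxa5, at 1.43 ± 0.23 (2.70-fold; adjusted p = 0.000126). In Pou3f1-FLAG it was called at 1.07 ± 0.23 (2.10-fold; adjusted p = 0.00825). The Pou3f1-FLAG call was lost, at adjusted p = 0.0717 to 0.228, without either YFP array of batch 6 or without Pou3f1-FLAG replicate 2. With CD14 Pou3f1 alone the difference was 0.93 at adjusted p = 0.0717, which missed the threshold. It was 0.25 (adjusted p = 0.782) with Lhx3 and 0.12 (adjusted p = 0.963) with DNLhx3.

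These comparisons had different numbers of calls over all genes: 8.98% with Hoxc6, 5.92% with Hoxa5, 2.44% in Pou3f1-FLAG, 4% with DNLhx3, 3.94% with Lhx3 and 0.306% in CD14 Pou3f1. In CD14 Pou3f1, 0 of the 35 channel genes were called by limma and 3 had an unadjusted p under 0.05. Other fits of that comparison called 1 to 3 channel genes: 2 without batch terms or within batches, 3 with the CD14 arrays alone and 1 without the 6 batch 4 arrays. Cacng5 was 0.79 ± 0.23 (SE) higher in Pou3f1 with Hoxc6 than in CD14 Pou3f1 (adjusted p = 0.0254). That difference was lost without any 1 of its 4 arrays (adjusted p = 0.122 to 0.133). Against CD14 Pou3f1 the line with Hoxa5 differed by 0.50 (adjusted p = 0.261), that with DNLhx3, where 2.11% of all genes were called, by -0.81 (adjusted p = 0.0582) and that with Lhx3 by -0.69 (adjusted p above 0.999). The response of Cacng5 to Pou3f1 differed by -0.35 between the CD14 and CD2 reporters, and this interaction was not called (adjusted p = 0.86). It was called for 0.01% of all genes and for 0 channel genes by limma, with 1 at an unadjusted p under 0.05.

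**Figure D3:**
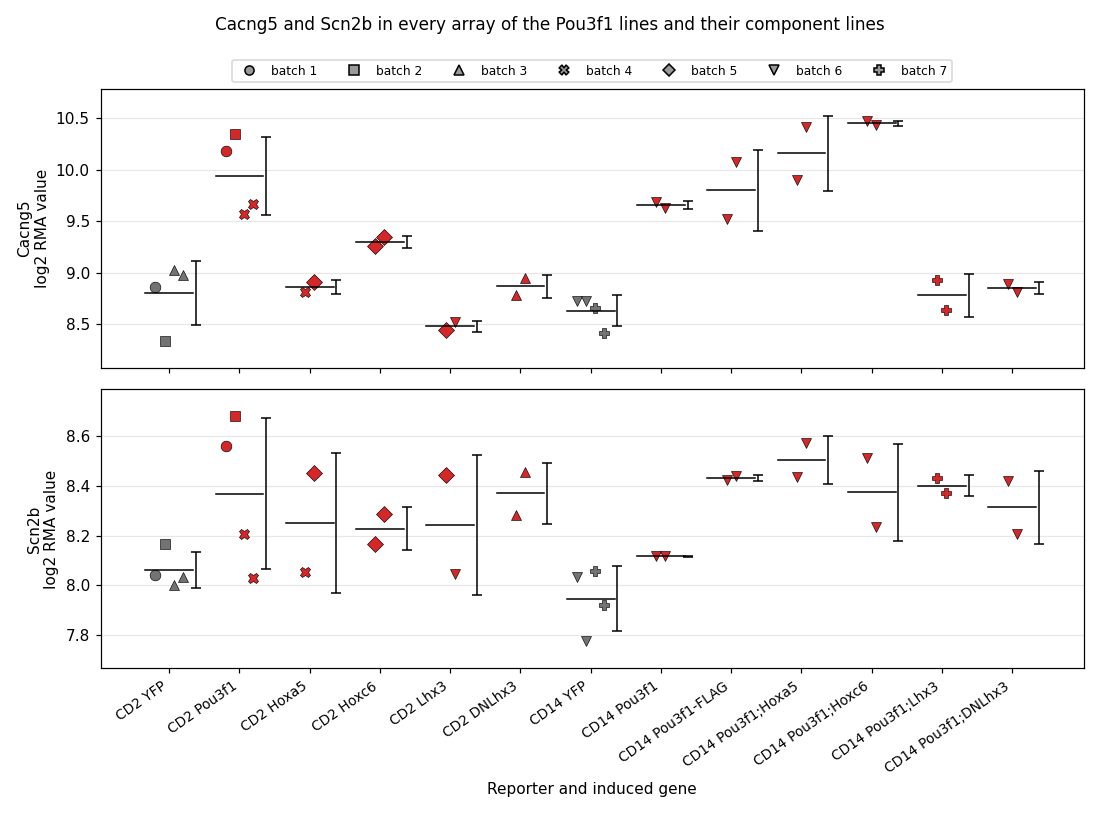
Log2 signal of Cacng5 and Scn2b on each array of the YFP controls (grey), of the lines inducing Pou3f1 and of the CD2 lines inducing Hoxa5, Hoxc6, Lhx3 or DNLhx3 alone (red), with 1 marker shape per batch, the mean as a horizontal line and the SD as an error bar. Cacng5 lies between 8.34 and 9.02 in all YFP arrays and between 9.52 and 10.47 in the Pou3f1 and Pou3f1-FLAG lines and in the joint lines of Pou3f1 with Hoxa5 and with Hoxc6, while the joint lines with Lhx3 and DNLhx3 lie between 8.63 and 8.93.

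The Pou3f1 signal itself was 8.31 to 8.48 in CD14 YFP. It was 9.07 and 8.76 in CD14 Pou3f1, 9.03 and 8.86 in Pou3f1-FLAG, 9.19 and 9.14 with Hoxa5, 10.29 and 10.33 with Hoxc6, 9.72 and 9.59 with Lhx3, and 9.66 and 9.24 with DNLhx3. All 12 line arrays lay above YFP, but the difference was not called in CD14 Pou3f1 (0.45, adjusted p = 0.583) or Pou3f1-FLAG (0.48, adjusted p = 0.182). The lines with Lhx3 (in another batch) and DNLhx3 had a higher Pou3f1 signal than CD14 Pou3f1 and a lower Cacng5 signal. In the CD2 Pou3f1 line Pou3f1 rose by 1.09 (adjusted p = 9.84e-06). The files do not say whether the probes detect the transgene.

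The 6 arrays of Pou3f1-FLAG and of Pou3f1 with Hoxa5 and with Hoxc6 also differed in Malat1, a nuclear non-coding RNA. Its signal was 11.96 to 12.25 in these 6, while 7 further CD14 arrays of batch 6 lay at 10.36 to 10.91, and its part in the result was not tested. In the CD2 reporter, measured in other batches, Malat1 was 11.97 to 12.37 in Pou3f1 and 11.84 to 12.49 in YFP.

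Among the other gamma subunits, Cacng2 (stargazin, the first TARP described) fell in 2 joint lines. Its signal was 11.32, 11.27, 11.10 and 10.97 in CD14 YFP, 10.53 and 10.60 in Pou3f1 with Hoxc6, and 10.32 and 10.17 in Pou3f1 with Lhx3. Both lines lay below all YFP arrays. The differences were -0.73 ± 0.23 with Hoxc6 and -0.79 ± 0.23 with Lhx3 (SE; limma adjusted p = 0.0348 in both). Either call was lost without any 1 of 4 arrays, the line's own and the YFP arrays of its batch, at adjusted p = 0.126 to 0.201 with Hoxc6 and 0.117 to 0.254 with Lhx3. A second Cacng2 cluster differed the same way, by -0.84 and -0.76, and was called in both lines. In the CD2 Lhx3 line Cacng2 was 10.35 and 10.77, against 12.51, 11.20, 11.63 and 11.04 in CD2 YFP, a difference of -1.06 that missed the threshold (adjusted p = 0.0544).

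Cacng7, another TARP, fell in the CD2 Klf6 line. Its signal was 11.55 in batch 2 and 10.59 in batch 3 with Klf6, and 12.58, 11.98, 11.78 and 11.24 in CD2 YFP (batches 1, 2, 3 and 3). The batch 2 Klf6 array lay among the YFP arrays of batch 3, so the groups overlapped. The difference was -0.69 ± 0.14 (SE; adjusted p = 0.0143), where 0.471% of all genes were called. It was lost without the batch 3 Klf6 array or the first YFP array of batch 3 (adjusted p = 0.0764 to 0.546), and fitting within batches alone gave -0.71 (adjusted p = 0.351). Cacng1, the subunit of the muscle L-type channel, fell in CD2 Lhx3 by 0.70 (adjusted p = 0.0457). Cacng3, Cacng4 and Cacng8 were called in no comparison. Cacng4 ranged from -0.54 to 0.41 and Cacng8 from -0.35 to 0.19, both log2 differences.

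The alpha2delta subunits, which raise channel density at the synapse and bind gabapentin in the case of Cacna2d1 and Cacna2d2, were all called at least once. Cacna2d2 moved in the most comparisons, higher in 5 and lower in 2. Its signal in CD2 YFP was 9.27 in batch 1, 9.29 in batch 2, and 9.93 and 9.85 in batch 3. In Notch1 ICD (30) it was 8.78 and 8.86 (batch 3) and in DNLhx3 it was 9.09 and 9.15 (batch 3). Both lines lay below all YFP arrays. Cacna2d2 fell by 1.01 ± 0.17 (SE; 2.02-fold; limma adjusted p = 3.3e-05) in Notch1 ICD (30), where 6.07% of all genes were called. In DNLhx3, where 4.09% were called, it fell by 0.72 ± 0.17 (1.64-fold; adjusted p = 0.00677). The first was lost only in the fit without batch terms (-0.76, adjusted p = 0.0548), and the second without either DNLhx3 array (adjusted p = 0.0598 to 0.0633) and without batch terms (-0.46, adjusted p = 0.412).

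In Klf5, a Krüppel-like factor, the Cacna2d2 signal was 10.32 in batch 1 and 10.13 in batch 2, above all YFP arrays, and 0.89 ± 0.17 higher after adjustment (SE; adjusted p = 0.00393). Without the batch 1 array of Klf5 or of YFP the adjusted p was 0.0926 to 0.499. In CD2 Pou3f1 it was 9.88 in batch 1 and 10.02 in batch 2, above the YFP arrays of those batches. In batch 4 it was 9.33 and 9.36, among the YFP arrays. The adjusted difference was 0.52 ± 0.14 (adjusted p = 0.042). It was 0.67 (adjusted p = 0.0271) without the 6 batch 4 arrays and 0.06 (adjusted p = 0.892) without batch terms. It was also lost without the YFP arrays of batches 1 or 2, the second of batch 3, or the Pou3f1 arrays of batches 1 or 2 (adjusted p = 0.062 to 0.234).

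In CD2 Hoxc6 Cacna2d2 was 10.68 and 9.68, both in batch 5, which held no YFP. The arrays overlapped YFP, and the call (0.89, adjusted p = 0.0367) was lost without Hoxc6 replicate 2 or the YFP arrays of batch 1 or 2 (adjusted p = 0.0579 to 0.387) and without the 6 batch 4 arrays (0.79, adjusted p = 0.207). In the CD14 lines Cacna2d2 was 9.75 and 9.55 in YFP of batch 6 and 9.15 and 9.005 in YFP of batch 7. In Pou3f1 with Hoxc6 it was 10.49 and 10.47, above all of them, a difference of 0.84 ± 0.18 (SE; 1.78-fold; adjusted p = 0.00147) that kept its call with any 1 array left out. CD14 Pou3f1 alone was nearly as high, at 10.26 and 10.40, but the difference of 0.68 missed the threshold (adjusted p = 0.0986). Pou3f1-FLAG, at 9.65 and 9.52, was 0.75 lower than CD14 Pou3f1 (adjusted p = 0.0183), although both induced Pou3f1. That difference was lost without any 1 of the 4 arrays (adjusted p = 0.0766 to 0.18).

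Cacna2d3 rose in Notch1 ICD (30) and in NERT (30). Its signal was 8.40, 8.75, 9.42 and 8.49 in CD2 YFP and 10.57 and 10.71 in Notch1 ICD (30). It was 9.47, 9.43, 8.76 and 8.33 in CD14 YFP and 9.57 and 9.73 in NERT (30). In both reporters the induced arrays lay above all YFP arrays, with a small gap in CD14. The difference was 1.69 ± 0.28 in Notch1 ICD (30) (SE; 3.22-fold; limma adjusted p = 3.95e-05) and 1.11 ± 0.30 in NERT (30) (2.15-fold; adjusted p = 0.0229). The NERT (30) call was lost without either NERT (30) array or YFP replicate 2 of batch 7 (adjusted p = 0.0822 to 0.275). In NERT (30) 4.7% of all genes and 3 of the 35 channel genes were called.

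Pou3f1 with Hoxa5 had a lower Cacna2d3 signal, 8.81 and 7.90, which overlapped the CD14 YFP arrays. The difference was -1.09 ± 0.30 (SE; adjusted p = 0.0217) and was lost without either YFP array of batch 6 or Hoxa5 line replicate 3 (adjusted p = 0.111 to 0.459). Against CD14 Pou3f1, at 9.49 and 9.57, the line with Hoxa5 was 1.17 lower (adjusted p = 0.0195), lost without either Pou3f1 array or Hoxa5 line replicate 3 (adjusted p = 0.135 to 0.461). In CD2 Lhx3 Cacna2d3 was 10.29 and 10.00, above all YFP arrays, but those arrays share no batch with CD2 YFP and the difference of 1.10 was not called (adjusted p = 0.129).

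Cacna2d1, an alpha2delta subunit of muscle and neurons, rose by 1.05 ± 0.30 in Pou3f1 with Lhx3 (SE; 2.07-fold; adjusted p = 0.0393). The call was lost without any 1 of its 4 batch 7 arrays (adjusted p = 0.164 to 0.262). A second Cacna2d1 cluster rose by 1.24 in the same line. Cacna2d4, best known from the retina, fell by 0.61 in CD2 Lhx3 (adjusted p = 0.0425). That line had 3.81% of all genes called and its arrays overlapped those of YFP.

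**Figure D4:**
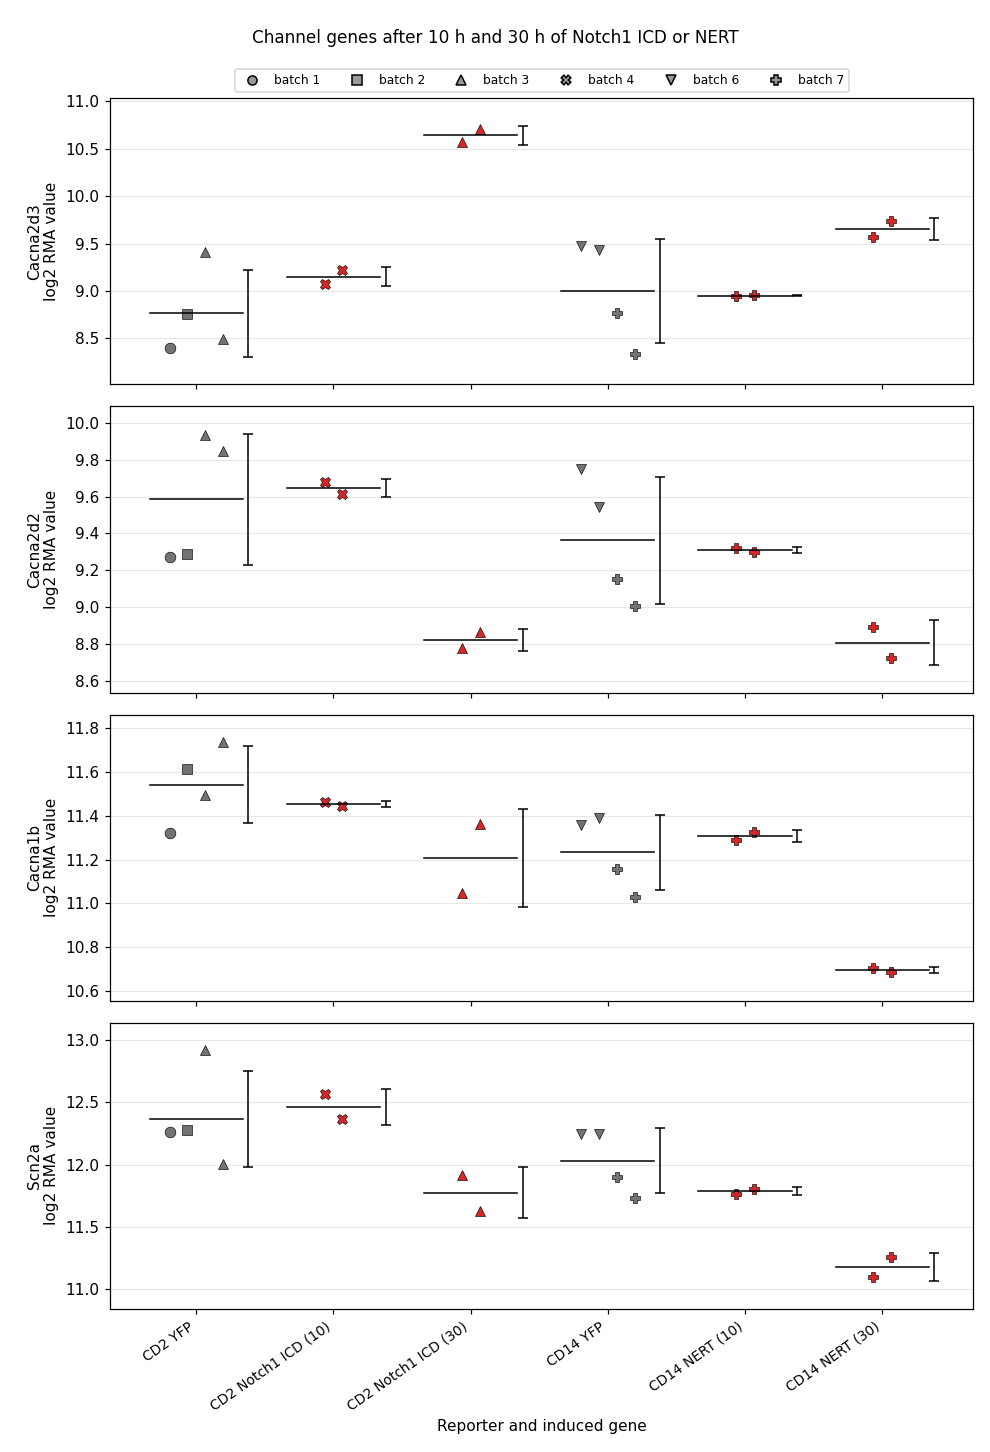
Log2 signal of Cacna2d3, Cacna2d2, Cacna1b and Scn2a on each array of YFP (grey) and of the Notch1 ICD and NERT lines at 10 and 30 h (red), with 1 marker shape per batch, the mean as a horizontal line and the SD as an error bar. Cacna2d3 lies between 10.57 and 10.71 in Notch1 ICD (30), above the 8.40 to 9.42 of CD2 YFP, and Cacna2d2 at 8.78 and 8.86 lies below the 9.27 to 9.93 of YFP.

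Among the pore-forming alpha1 subunits, Cacna1e, the R-type channel, showed the lowest difference of all channel genes. Its signal in CD14 YFP was 9.26 and 9.11 in batch 6 and 9.78 and 9.68 in batch 7. In Pou3f1 with Lhx3 (batch 7) it was 8.32 and 7.90, below every YFP array. The difference was -1.62 ± 0.20 (SE; 3.08-fold lower; limma adjusted p = 6.32e-07), where 3.94% of all genes and 4 of the 35 channel genes were called. Against CD14 Pou3f1 the same line was 1.85 ± 0.29 lower (adjusted p = 0.000314), a comparison with 0.502% of all genes called and Cacna1e as the only channel gene. Both calls held with any 1 array of the 2 groups compared left out. The second crosses batches 7 and 6 and was not repeated without each YFP array. Lhx3 itself, a LIM homeodomain factor of motor neurons, rose by 3.89 in Pou3f1 with Lhx3.

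With Hoxc6 in place of Lhx3, Cacna1e was 9.85 and 9.82, just above all YFP arrays, and 0.65 ± 0.20 higher (SE; adjusted p = 0.0374). That call was lost without any 1 of the 4 batch 6 arrays of the line and of YFP (adjusted p = 0.115 to 0.214). In CD2 Lhx3 the signal was 9.46 in batch 5 and 8.83 in batch 6, against 10.30, 10.61, 10.04 and 10.33 in CD2 YFP. The arrays did not overlap, but they share no batch with YFP, and the difference of -0.58 was not called (adjusted p = 0.23).

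**Figure D5:**
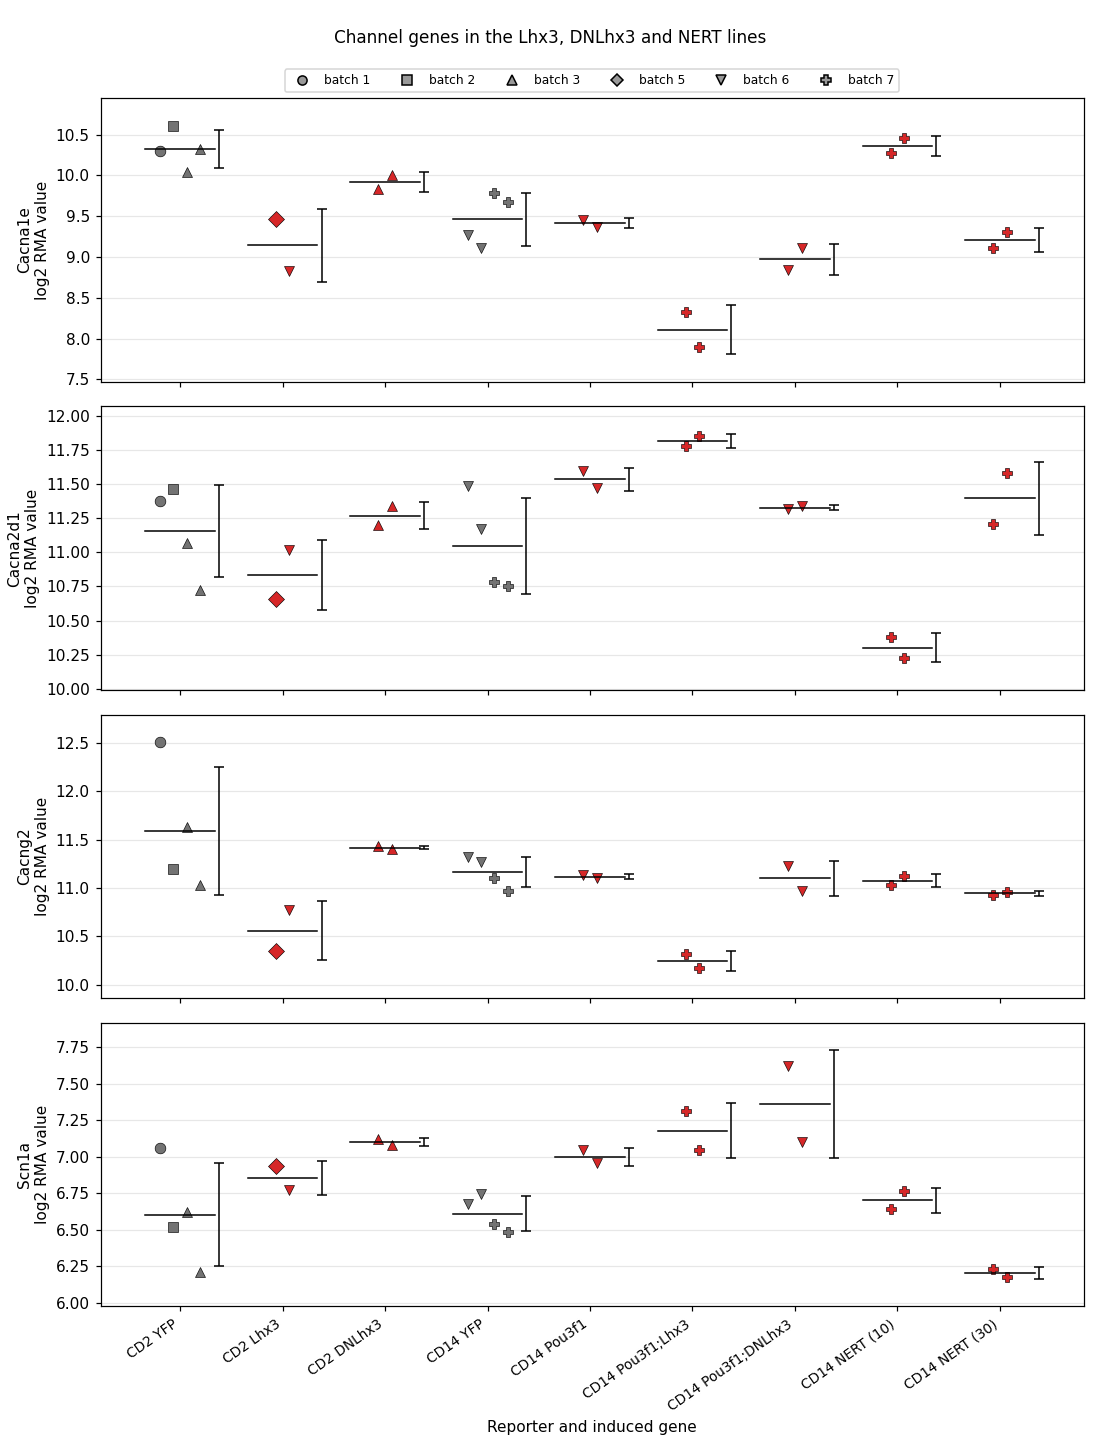
Log2 signal of Cacna1e, Cacna2d1, Cacng2 and Scn1a on each array of YFP (grey) and of the Lhx3, DNLhx3, CD14 Pou3f1 and NERT lines (red), with 1 marker shape per batch, the mean as a horizontal line and the SD as an error bar. Cacna1e lies at 8.32 and 7.90 in Pou3f1 with Lhx3, below the 9.11 to 9.78 of CD14 YFP, and at 10.28 and 10.45 in NERT (10).

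Cacna1h, a T-type channel that opens near the resting potential, was higher in 3 lines. In CD14 YFP its signal was 10.19, 10.13, 9.94 and 10.01, in NERT (30) 10.33 and 10.45, and in Pou3f1 with DNLhx3 10.64 and 10.55. Both lines lay above all YFP arrays. The differences were 0.41 ± 0.11 in NERT (30) (SE; adjusted p = 0.0264) and 0.44 ± 0.11 with DNLhx3 (adjusted p = 0.0162). Each was lost without any 1 of its 4 arrays of the same batch, at adjusted p = 0.0653 to 0.289 and 0.0629 to 0.194. In CD2 Klf5 it was 10.99 and 10.93, against 10.62, 10.64 and 10.60 in 3 YFP arrays and 10.01 in that of batch 1. The difference of 0.58 ± 0.11 (adjusted p = 0.00327) was lost without that YFP array or the batch 1 Klf5 array (adjusted p = 0.292 to 0.891), in a comparison with 0.311% of all genes called.

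Cacna1b, the N-type channel of presynaptic terminals, was lower with Notch1 ICD (30), at 11.05 and 11.36 against 11.32, 11.61, 11.49 and 11.74 in CD2 YFP. The higher of the 2 Notch arrays lay within the YFP range. The difference was -0.42 ± 0.12 (SE; adjusted p = 0.0181), lost without Notch1 ICD (30) replicate 1 or YFP replicate 2 of batch 3 (adjusted p = 0.104 to 0.392). In NERT (30) Cacna1b was 10.70 and 10.69, below all CD14 YFP arrays (11.36, 11.39, 11.16 and 11.03), and the difference of -0.40 missed the threshold (adjusted p = 0.056).

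The other alpha1 genes were called in no comparison with YFP. Cacna1c and Cacna1d, the neuronal L-type channels, had lowest adjusted p-values of 0.0589 (CD2 Hoxc6) and 0.0534 (CD2 DNLhx3). The P/Q-type Cacna1a ranged from -0.32 to 0.32 and the T-type Cacna1g from -0.30 to 0.70. Cacna1f, Cacna1i and Cacna1s, known from retina, thalamus and skeletal muscle, stayed between -0.41 and 0.24. Between lines, however, Cacna1c was lower than in CD14 Pou3f1 in Pou3f1 with Hoxa5 (-0.69, limma adjusted p = 0.00324), in Pou3f1 with Hoxc6 (-0.44, adjusted p = 0.0463) and in Pou3f1-FLAG (-0.72, adjusted p = 0.0044). Those comparisons called 3.45%, 8.97% and 2.21% of all genes and share the 2 CD14 Pou3f1 arrays. Without CD14 Pou3f1 replicate 2 all 3 calls were lost. They were also lost without Hoxa5 line replicate 3, Pou3f1-FLAG replicate 2, or any 1 of the Hoxc6 and Pou3f1 arrays, with adjusted p = 0.0857 to 0.0891, 0.106 to 0.136 and 0.0967 to 0.311 in turn.

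Of the cytoplasmic calcium channel beta subunits, none of Cacnb1, Cacnb2 and Cacnb4 was called by limma. The lowest adjusted p-values were 0.0672 for Cacnb4 and 0.0847 for Cacnb1, both in CD2 Pou3f1, and 0.39 for Cacnb2. Their differences from YFP stayed between -0.46 and 0.53 over all 27 comparisons.

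Of the sodium channel alpha genes, Scn3a, Scn2a, Scn1a, Scn9a and Scn7a lie in this order on chromosome 2. Scn2a, the channel of young axons, had a signal of 12.26, 12.28, 12.91 and 12.01 in CD2 YFP. In CD2 Pou3f1 it was 13.09 in batch 1, 12.95 in batch 2, and 12.41 and 12.25 in batch 4. The arrays of batches 1 and 2 lay above all YFP arrays and those of batch 4 among them. The difference was 0.71 ± 0.17 (SE; 1.64-fold; adjusted p = 0.0136), and it was lost without the YFP arrays of batch 1 or 2 or the batch 1 Pou3f1 array (adjusted p = 0.0577 to 0.102). It was 0.62 (adjusted p = 0.078) without the 6 batch 4 arrays and 0.31 (adjusted p = 0.452) without batch terms.

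In Notch1 ICD (30) Scn2a was 11.92 and 11.63, below all YFP arrays, at -0.66 ± 0.20 (SE; 1.58-fold; adjusted p = 0.0356). The call was lost without either Notch array or YFP replicate 1 of batch 3 (adjusted p = 0.0623 to 0.336), and without the 6 batch 4 arrays (-0.55, adjusted p = 0.0715). In Notch1 ICD (10), a batch 4 line with 2.96% of all genes called, Scn2a was 12.56 and 12.36, inside the YFP range. Its difference of 0.84 (adjusted p = 0.0257) became 0.22 (adjusted p = 0.873) without the 6 batch 4 arrays, which lay at 11.22 to 12.41. The call was also lost without either Notch array or the YFP arrays of batch 1 or replicate 2 of batch 3 (adjusted p = 0.0545 to 0.121). Cacna2d2, at 9.68 and 9.61 in the same line, was called at 0.73 (adjusted p = 0.0214) with both arrays inside the YFP range. It was lost without either Notch array or the batch 1 YFP array (adjusted p = 0.0517 to 0.12) and without the 6 batch 4 arrays (1.00, adjusted p = 0.144), and without batch terms it differed by 0.06. A set of 13 other Scn2a clusters had the sign of the kept cluster in all 3 comparisons, and 8 were called in CD2 Pou3f1, 7 in Notch1 ICD (30) and 10 in Notch1 ICD (10).

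Scn1a, the channel mutated in Dravet syndrome, rose in 4 lines and was dim throughout. Its signal was 6.67, 6.74, 6.54 and 6.49 in CD14 YFP, 7.62 and 7.10 in Pou3f1 with DNLhx3, and 7.31 and 7.05 in Pou3f1 with Lhx3. In the CD2 arrays it was 7.06, 6.52, 6.62 and 6.21 in YFP, 7.12 and 7.08 in DNLhx3, and 7.29 and 7.03 in Hoxc6. The arrays of 3 lines lay above YFP, by the smallest margin in CD2 DNLhx3, and Hoxc6 overlapped it.
The differences of Scn1a were 0.65 ± 0.18 in Pou3f1 with DNLhx3 (SE; limma adjusted p = 0.0262), 0.66 ± 0.18 in Pou3f1 with Lhx3 (adjusted p = 0.0236) and 0.59 ± 0.17 in CD2 DNLhx3 (adjusted p = 0.0354). They were lost without the first array of the joint line or either YFP array of its batch, at 0.132 to 0.614 and 0.106 to 0.339. In CD2 DNLhx3 the call was lost without either line array or the YFP arrays of batch 2 or replicate 2 of batch 3, at 0.0729 to 0.331. In CD2 Hoxc6, with 2.35% of all genes called, the difference of 0.90 (adjusted p = 0.0379) became 0.45 (adjusted p = 0.47) without the 6 batch 4 arrays. It was also lost without Hoxc6 replicate 2 or the YFP arrays of batch 2 or replicate 2 of batch 3 (adjusted p = 0.0583 to 0.154).

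In Pou3f1 with DNLhx3, 2 other sodium channel genes of chromosome 2 were called in opposite directions. Scn9a, a channel of peripheral neurons, was 11.38, 11.47, 11.37 and 11.21 in CD14 YFP and 10.57 and 10.75 in the line, all below YFP. Scn3a, which is expressed mainly before birth, was 9.37, 9.43, 9.58 and 9.42 in YFP and 9.98 and 10.08 in the line, all above. Scn9a fell by 0.76 ± 0.20 (SE; adjusted p = 0.014), and a second Scn9a cluster fell by 0.85. Scn3a rose by 0.63 ± 0.17 (adjusted p = 0.0267). The Scn9a call was lost without either YFP array of batch 6 or line replicate 1 (adjusted p = 0.0761 to 0.199), and the Scn3a call without any 1 of the 4 arrays of batch 6 (adjusted p = 0.105 to 0.228). Scn9a was also low in Pou3f1 with Lhx3, at 10.75 and 10.77, but the difference of -0.53 was not called (adjusted p = 0.163).

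The remaining sodium alpha genes gave single calls. Scn8a, the main channel of mature nodes and initial segments, was 0.64 higher in CD2 Hoxc6 (adjusted p = 0.0308), a call lost without Hoxc6 replicate 2 (adjusted p = 0.128) and without the 6 batch 4 arrays (0.36, adjusted p = 0.409). Scn7a, a sodium-sensing relative of the channels, was 1.05 lower in Pou3f1 with Hoxc6 (adjusted p = 0.044), lost without either line array or either YFP array of batch 6 (adjusted p = 0.158 to 0.225). Scn10a, a channel of nociceptors, was 0.57 lower in CD2 Lhx3 (adjusted p = 0.0467). It was dim, at 5.91 to 6.62 over the arrays of batches 1 to 7, as were Cacna2d4 (6.83 to 7.65) and Cacng1 (7.10 to 8.18). Without batch adjustment the CD2 Lhx3 difference was -0.29 for Scn10a, -0.15 for Cacna2d4 and -0.45 for Cacng1. In that line Scn10a, Cacna2d4 and Cacng1 lost their calls without the batch 5 Lhx3 array or YFP replicate 1 of batch 3, and Cacna2d4 also without the batch 2 YFP array. Their adjusted p was then 0.0682 to 0.694, 0.058 to 0.866 and 0.0665 to 0.851. Without the 6 batch 4 arrays Cacng1 (adjusted p = 0.118) and Scn10a (adjusted p = 0.177) were not called either. Scn11a, also of nociceptors, was not called (lowest adjusted p = 0.334).

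The sodium beta subunits were called only upward. Scn2b, which is linked covalently to the alpha subunit, had a signal of 8.03, 7.77, 8.06 and 7.92 in CD14 YFP. It was 8.42 and 8.44 in Pou3f1-FLAG, 8.44 and 8.57 with Hoxa5, and 8.51 and 8.24 with Hoxc6. All 6 arrays lay above YFP. The differences were 0.60 ± 0.12 with Hoxa5 (SE; 1.52-fold; limma adjusted p = 0.00206), 0.53 ± 0.12 in Pou3f1-FLAG (adjusted p = 0.0147) and 0.47 ± 0.12 with Hoxc6 (adjusted p = 0.011). All 3 were lost without YFP replicate 2 of batch 6, the lowest YFP array. Leaving out either Pou3f1-FLAG array, Hoxa5 line replicate 3 or Hoxc6 line replicate 1 also ended the call of that line. The adjusted p without these arrays was 0.0639 to 0.0907 with Hoxa5, 0.0948 to 0.239 in Pou3f1-FLAG and 0.209 to 0.259 with Hoxc6.

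With Lhx3 and with DNLhx3 Scn2b was 8.43 and 8.37, and 8.42 and 8.21, also above all YFP arrays. Both differences were 0.41 and just missed the threshold (adjusted p = 0.0506 and 0.0513). CD14 Pou3f1, at 8.12 on both arrays, differed by 0.21 (adjusted p = 0.77). The Scn2b signal thus lay above YFP in all 6 CD14 lines with Pou3f1, and that of Cacng5 in 5 of them. These counts include pairs that were not called, such as Scn2b in CD14 Pou3f1 and Cacng5 with DNLhx3. All 6 lines were set against the same YFP arrays, and over all genes and comparisons 19.8% of pairs did not overlap.

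In CD2 YFP Scn2b was 8.04, 8.17, 8.00 and 8.03. In CD2 Pou3f1 it was 8.56 and 8.68 in batches 1 and 2 and 8.21 and 8.03 in batch 4, and in DNLhx3 8.28 and 8.46. DNLhx3 lay above all YFP arrays, while 1 Pou3f1 array lay among them. The differences were both 0.39 (limma adjusted p = 0.0251 in Pou3f1 and 0.0452 in DNLhx3). The Pou3f1 call was lost without the YFP or Pou3f1 array of batch 1 or of batch 2 (adjusted p = 0.0861 to 0.189), and without the 6 batch 4 arrays the difference was 0.50 (adjusted p = 0.0111). The DNLhx3 call was lost without either line array or the YFP arrays of batch 1, of batch 2 or replicate 2 of batch 3 (adjusted p = 0.0595 to 0.419), and without the 6 batch 4 arrays (0.37, adjusted p = 0.0543).

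Scn3b, a beta subunit that binds the channel without a covalent link, was 12.85, 12.83, 12.57 and 12.58 in CD14 YFP and 12.99 and 13.18 in NERT (30). Both NERT arrays lay above YFP. The difference was 0.51 ± 0.14 (SE; adjusted p = 0.03) and was lost without any 1 of the 4 batch 7 arrays (adjusted p = 0.0536 to 0.353). Scn4b ranged from -0.32 to 0.15 and was not called.

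The lines induced for 10 h and for 30 h allow the same construct to be compared at both times. Notch1 ICD (10) and (30), however, were in different labelled batches. Between the 2 Notch1 ICD lines 6.41% of all genes and 3 of the 35 channel genes were called, all 3 lower at 30 h where 4.25% of all genes were. Cacna2d2, from the array values above, was 1.74 ± 0.22 lower (SE; 3.34-fold; limma adjusted p = 5.46e-07) and Scn2a 1.497 ± 0.26 lower (2.82-fold; adjusted p = 0.000135). Cacna1b was 0.52 ± 0.15 lower (adjusted p = 0.0317). The calls of Cacna2d2 and Scn2a held with any 1 array of these 2 lines left out. Arrays of other lines, which link the 2 batches, were not left out in turn. Without batch terms neither call held, at -0.82 (adjusted p = 0.1) and -0.69 (adjusted p = 0.285). Without the 6 batch 4 arrays Scn2a differed by -0.78 (adjusted p = 0.335). Cacna1b was lost without either 10 h array or replicate 1 of 30 h (adjusted p = 0.0875 to 0.32) and without the 6 batch 4 arrays (adjusted p = 0.337). All 13 other Scn2a clusters were called lower at 30 h.

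NERT (10) and NERT (30) stood in 1 batch, where 3.78% of all genes and 6 of the 35 channel genes (17.1%) differed. Cacna1e was 10.28 and 10.45 at 10 h and 9.10 and 9.31 at 30 h, and Cacna1b was 11.29 and 11.33 against 10.70 and 10.69. The times did not overlap in either gene. Cacna1e was 1.16 ± 0.20 lower at 30 h (SE; 2.23-fold; limma adjusted p = 0.000203) and Cacna1b 0.61 ± 0.12 lower (adjusted p = 0.00143), and both held with any 1 NERT array left out. Cacna1a was 0.56 lower (adjusted p = 0.00841) and Cacna1d 0.44 lower (adjusted p = 0.0178). Cacna1h was 0.40 higher (adjusted p = 0.0357) and Cacna2d1 1.09 higher (adjusted p = 0.0302). These 4 calls were each lost without any 1 of the 4 NERT arrays, at adjusted p = 0.0604 to 0.107 for Cacna1a, 0.0823 to 0.208 for Cacna1d, 0.0903 to 0.388 for Cacna1h and 0.0651 to 0.4 for Cacna2d1. Against YFP NERT (10) had 0 of the 35 channel genes called and 6 at an unadjusted p under 0.05, with 0.416% of all genes called. Its Cacna1e difference from YFP was 0.63 (adjusted p = 0.252) and that of NERT (30) was -0.53 (adjusted p = 0.154).

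Other genes moved beside the channel genes at 30 h. Hes5, a Notch target, rose by 2.18 in Notch1 ICD (30) and 2.68 in NERT (30). The mean signal of 8 motor neuron markers was 10.23 to 10.49 in Notch1 ICD (30) against 10.84 to 11.14 in CD2 YFP, and 6 of the 8 fell. In NERT (30) it was 10.38 to 10.51 against 11.11 to 11.21 in CD14 YFP, and 7 of the 8 fell. At 10 h the mean was 10.86 to 10.89 in Notch1 ICD and 11.10 to 11.14 in NERT. In Notch1 ICD (10) Hes5 rose by 1.23 and Gata3 by 0.81, while Lhx3 fell by 1.28, Chat by 0.51 and the progenitor gene Olig2 by 1.55. The mean of 9 neural progenitor markers, Hes5 and Olig2 among them, was 10.81 to 10.83 there, above the 10.35 to 10.70 of CD2 YFP. In NERT (10) Hes5 rose by 1.74, and the progenitor mean was 10.60 to 10.66 against 10.33 to 10.54 in CD14 YFP. Nefm, a neurofilament gene, fell by 0.85 in Notch1 ICD (30) and 0.41 in NERT (30), as the single one of 8 neuron markers. The neuron mean was 12.43 to 12.44 against 12.65 to 12.80 in CD2 YFP, and 12.48 to 12.51 against 12.63 to 12.90 in CD14 YFP. The muscle gene Des fell by 0.67 and 0.70, as the single one of 7 muscle markers. The muscle mean stayed within the YFP range, at 7.95 to 8.11 against 7.94 to 8.35, and 8.13 to 8.36 against 7.77 to 8.52. Of 9 neural progenitor markers 1 rose in Notch1 ICD (30) and 2 in NERT (30), and their mean was 11.13 to 11.15 in Notch1 ICD (30) against 10.35 to 10.70 in YFP, and 11.07 to 11.09 in NERT (30) against 10.33 to 10.54. Of 5 glial markers 3 rose and 1 fell in Notch1 ICD (30), with a mean of 8.03 to 8.04 against 7.68 to 7.82 in YFP. In NERT (30) 1 of the 5 rose, Aldh1l1 by 1.21. The mean of 5 proliferation genes, none of them called by limma, was 11.11 to 11.25 in Notch1 ICD (30) against 9.36 to 10.68 in YFP, and 11.11 to 11.26 in NERT (30) against 9.33 to 10.71. Both lines lay above every YFP array. Gata3, a marker of V2b interneurons, rose by 2.47 in Notch1 ICD (30) and 1.76 in NERT (30), as the single one of 5 ventral interneuron markers. The part of these shifts in the channel results was not tested, and in sorted bulk samples fewer cells of a type and less RNA per cell cannot be told apart.

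The lines with DNLhx3 also had lower motor neuron markers, with a mean of 10.38 to 10.44 in Pou3f1 with DNLhx3 (6 of 8 fell) and 10.38 to 10.54 in CD2 DNLhx3 (5 of 8 fell). Of 8 neuron markers Nefm fell by 1.39 and 1.07 in these lines, and Nefl by 0.31 in Pou3f1 with DNLhx3. The neuron mean was 12.75 on both arrays of Pou3f1 with DNLhx3, within the 12.63 to 12.90 of CD14 YFP. In CD2 DNLhx3 it was 12.51 to 12.58, below the 12.65 to 12.80 of CD2 YFP. In Pou3f1 with Lhx3 the motor neuron mean was 11.75 to 11.79, with Lhx3 itself among the 8, and 3 of 7 muscle markers fell. Among them Actc1, an actin of developing muscle, fell by 2.32. The muscle mean was 7.79 to 7.85 there and 7.77 to 8.52 in CD14 YFP. In CD2 Pou3f1 Actc1 fell by 1.61 as the single muscle marker called, with a muscle mean of 7.75 to 7.98 against 7.94 to 8.35 in CD2 YFP. The part of these in the channel results was not tested either.

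In the joint lines with Hoxa5 and Hoxc6 the mean signals of progenitor and proliferation genes lay below those of YFP. Of the 9 progenitor markers Nes fell by 0.92 and 0.76 and Fabp7 by 0.65 and 0.49, with a mean of 9.99 to 10.13 with Hoxa5 and 10.06 to 10.07 with Hoxc6 against 10.33 to 10.54 in YFP. The mean of the 5 proliferation genes, none called by limma, was 8.69 to 9.04 and 8.83 to 8.85 against 9.33 to 10.71. Of the 8 motor neuron markers Mnx1 (0.73) and Prph (0.57) rose with Hoxa5. With Hoxc6 Isl1 (0.52), Lhx3 (1.00) and Prph (0.61) rose and Isl2 fell by 1.44. Nefm, as the single one of 8 neuron markers, fell by 0.44 with Hoxc6, where the neuron mean was 12.79 against 12.63 to 12.90 in YFP. The motor neuron mean was 11.24 to 11.29 and 11.20 to 11.27 against 11.11 to 11.21. In Pou3f1-FLAG Fabp7 fell by 0.49, and the means were 9.91 to 10.69 for progenitor and 8.49 to 10.23 for proliferation genes. The part of these shifts in the calls of the 3 lines was not tested.

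Genes whose products bind, anchor or accompany the channels were read from lists of 11 sodium channel partners, 15 calcium channel partners, 18 voltage-gated potassium and HCN channels and 7 genes of REST and its cofactors, as measured here. In CD2 Pou3f1, where 1.3% of all genes were called higher and 0.787% lower, 4 of 11 sodium channel partners rose and none fell. The median difference of the 11 was 0.35 beside 0.01 over all genes. Those that rose were the intracellular FGF-related proteins Fgf11 (0.81, limma adjusted p = 0.000224) and Fgf13 (0.51), and the adhesion molecules Nfasc and Nrcam (0.35 each). Of the calcium channel partners Ryr2, an intracellular calcium release channel, rose by 0.60 and Syt1, the calcium sensor of release, by 0.41. None of the potassium or REST genes was called in that line. In CD14 Pou3f1 none of the 4 lists had a call.

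In Notch1 ICD (30), where 3.54% of all genes were called higher and 2.53% lower, 3 of 11 sodium channel partners fell and none rose. Fgf11 fell by 0.68, Fgf13 by 0.62 and Nrcam by 0.37, the median of the 11 being -0.14 beside -0.03 over all genes. Of 15 calcium channel partners 3 fell, Stac2 by 0.71, Stac by 0.60 and the active zone protein Rimbp2 by 0.56. The potassium channel gene Kcna1 rose by 1.27 (adjusted p = 4.49e-08) and Kcna5 by 0.62, while Kcna6 fell by 0.84 and Kcnd3 by 0.66. In NERT (30) Fgf13 fell by 0.52, Rimbp2 by 0.75 and Kcnd3 by 0.61, and Ryr2 rose by 0.42.

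In Pou3f1 with Lhx3, where 2.21% of all genes were called higher and 1.73% lower, 3 of 11 sodium channel partners rose and none fell. Fgf12 rose by 1.00, Nrcam by 0.76 (limma adjusted p = 1.14e-05) and Nfasc by 0.52, with a median of 0.40 for the 11 beside -0.01 over all genes. The line with Hoxc6 had 4 of 11 lower, Ank3, the ankyrin of the initial segment, by 0.59, Ank2 by 0.47, Fgf13 by 0.45 and Nfasc by 0.40, with a median of -0.02 beside 0.06 over all genes. The line with Hoxa5 had Ank3 lower by 0.52 and Nfasc by 0.48, with a median of 0.03 beside 0.01. Potassium channel genes were called in both of those lines, 1 higher and 3 lower of 18 with Hoxa5 and 2 higher and 5 lower with Hoxc6. Their medians were -0.18 beside 0.01 and -0.14 beside 0.06 over all genes, of which 5.92% and 8.98% were called. Among them Kcnc2 rose by 1.39 with Hoxa5, Kcnd2 rose by 1.09 with Hoxc6, and Kcnd3 fell by 0.70 and 0.79. In Pou3f1 with DNLhx3 Fgf14 rose by 0.95, Nfasc by 0.35 and the calcium channel partner Syt1 by 0.44, and Fgf13 fell by 0.60. Of the other calcium channel partners, Rimbp2 fell by 0.82 and Rims1 by 0.45 with Hoxc6, while Stac2 rose by 0.72 and Syt1 by 0.41. With Hoxa5 Rimbp2 fell by 0.61 and Stac by 0.64. With Lhx3 Gem fell by 0.70, and Ryr2 rose by 0.52 and Syt1 by 0.43. The potassium channel genes Kcnq5, Kcnd1 and Kcna5 fell with Lhx3, by 0.63, 0.58 and 0.57. Of the REST list a single gene was called in these comparisons, Rcor2 with Hoxc6 (-0.51).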

How the data were processed

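Gene expression was measured on 68 Affymetrix mouse gene arrays (45 CD2, 23 CD14) in 31 labelled groups and 8 labelled batches, 0 to 7. The deposited values are log2 expression values per transcript cluster, made by the authors with RMA in oligo, per the submitters' processing notes, and were not transformed further. No tool version or genome build is given in the sources used here. RMA normalizes arrays against each other and gives no background flag, so a dim signal is no proof of expression. Of 35556 clusters, 21789 carried 1 symbol, 1621 several and 12146 none in the platform annotation. Of those with 1 symbol 21698 matched the RefSeq table by gene identifier. Clusters with several symbols, some of them of sodium channels, were left out, and of several clusters of a gene that with the highest mean was kept (999 genes), giving 19938 genes. Levels were not compared between genes.

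limma 3.58.1 in R 4.3.3 fitted 1 term per group and 1 per batch to all arrays (37 columns; residual and prior degrees of freedom 31 and 6.075), with p-values adjusted over all 19938 genes. The script was tested on simulated data. The contrasts were 27 against YFP, 7 of line against line and 1 interaction. Array values were given for the 14 channel genes called most often, ties broken by the lowest adjusted p, and other channel genes by counts and ranges. Partner genes named were among the 4 of lowest adjusted p per list and comparison, and not all of those were named. The channel genes, lists and tests were chosen with earlier results of these data known. Alternatives were a fit without batch terms, the arrays of each reporter alone, differences within batches, a repeated quantile normalization, genes with a mean under 6 left out, a replicate block and omission of the 6 batch 4 arrays. Each array of the groups compared was also left out in turn. The reading of other clusters and the alternatives for comparisons between lines were added after the data were seen.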

Additional observations from a re-analysis of the deposited data

Results flagged for a closer look

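The Cacna1h signal of the batch 1 CD2 YFP array was 10.01, far from the 10.60 to 10.64 of the other CD2 YFP arrays by Dixon's criterion for 4 samples. This was 1 of 42 such checks, of which chance flags about 1 in 20. The array enters the Cacna1h call of CD2 Klf5, which was lost without it.

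Between 30 h and 10 h of Notch1 ICD, the test of the difference itself was passed by Cacna1b (-0.52), Cacna2d2 (-1.74) and Scn2a (-1.497). Between 30 h and 10 h of NERT it was passed by Cacna1a (-0.56), Cacna1b (-0.61), Cacna1d (-0.44), Cacna1e (-1.16), Cacna1h (0.40) and Cacna2d1 (1.09).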

How the results depend on the processing

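Of the 44 calls against YFP, 44 were kept with genes of mean under 6 left out, 42 after a repeated quantile normalization, 27 with each reporter fitted alone, 14 without batch terms, 34 without the 6 batch 4 arrays and 30 of 36 within batches; none changed direction. Without batch terms the number of channel genes called was 1 in CD2 Pou3f1 (from 4), 1 in Notch1 ICD (30) (from 4), 2 in CD14 Pou3f1 (from 0), 3 with Hoxc6 (from 6), 2 with Lhx3 (from 4) and 10 in the other 19 comparisons together (from 16). Of all genes that fit called 2.63%, 4.27%, 0.843%, 7.8%, 2.68% and 0.67% in turn. With each reporter alone it was 1 in CD2 Pou3f1, 2 in Notch1 ICD (30), 3 in CD14 Pou3f1, 7 with Hoxa5 (from 3), 12 with Hoxc6, 10 with Lhx3, 7 with DNLhx3 (from 4) and 14 in NERT (30) (from 3). All genes called changed too, to 0.672%, 3.77% and 2.9% in the first 3, 11% to 24.6% in the 4 joint lines and 18.6% in NERT (30). Within batches it was 2 in Notch1 ICD (30), 2 in CD14 Pou3f1, 6 with Hoxa5, 11 with Hoxc6, 9 with Lhx3 and 12 in NERT (30), where 2.79%, 1.51%, 17%, 20.6%, 7.86% and 14% of all genes were called, and no within-batch count exists for the other 19 together. Without the 6 batch 4 arrays CD14 Pou3f1 had 1 (0.667% of all genes). The cause was not tested. With 1 array left out the counts ran from 1 to 5 in CD2 Pou3f1, 3 to 5 in Notch1 ICD (30), 1 to 3 with Hoxa5, 2 to 6 with Hoxc6, 1 to 5 with Lhx3, 0 to 4 with DNLhx3, 0 to 3 in NERT (30) and 10 to 23 in the other 19 (10 without the batch 4 array of CD2 Hoxa5, 23 without the batch 2 array of CD2 Hey1). The lone array left in a group is then assumed to vary like the others. With the replicate block (consensus correlation 0.036) all 44 calls stayed, with 20 in the other 19 comparisons and 5 with DNLhx3. To see whether same-numbered arrays deviated together, replicate 1 minus replicate 2 was taken within each group over all genes. These differences correlated between groups of a batch at -0.17 to 0.57 in batch 3, -0.14 to 0.16 in batch 6 and -0.14 to 0.18 in batch 7. The correlation was above 0.1 in 6 of 15, 2 of 10 and 1 of 3 pairs of groups. Not every pair passed 0.1, so the numbers were not taken to pair the arrays, although some groups of batch 3 varied together by number. The self-normalized signals carry no counting depth, and 2 arrays per line limit what can be called.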

Other observations

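Cacng3, a TARP-family gamma subunit with no call, had the widest gap between arrays of 1 group and batch of all the channel genes, with a median of 0.37 and a largest gap of 2.05 in CD2 Vwc2 (8.59 and 6.53). In batch 3, replicate 1 lay above replicate 2 in Vwc2, in Tox (8.75 and 7.19), in Btbd3 (8.14 and 6.68), in YFP and in Notch1 ICD (30) (7.62 and 7.27), but not in DNLhx3 (6.86 and 7.10). Its signal was 7.71, 7.54, 7.46 and 6.70 in CD2 YFP. It was 9.74 and 8.86 in Klf6, 8.73 and 9.88 in Zbtb7c and 7.54 and 10.70 in Hey1, which stood in batches 2 and 4. The differences were 2.07 (limma adjusted p = 0.0631), 2.06 (adjusted p = 0.202) and 1.78 (adjusted p = 0.175), and none was called.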
